A study of Mus musculus with 6 samples.

Results

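The small heat shock protein genes of muscle were followed across 6 bulk RNA-Seq libraries of gastrocnemius/plantaris (GP) muscle. The members are the genes listed in the count tables as Hspb1, Hspb2, Hspb3, Hspb6, Hspb7, Hspb8 and Cryab, taken by symbol alone. They are 7 of 24421 genes. The libraries come from male mice aged 5 months, whose strain background the labels give as B6C3F1, and every mouse had received tamoxifen 3 months earlier. By the study's methods, B6C3F1 was the strain of the injected zygotes, and the founders were later crossed to C57BL/6N. All mice carry the Net39 fl/fl alleles. By the labels, the 3 mice labelled Ctrl lack Cre and the 3 labelled cKO also carry HSACreERT2, a tamoxifen-inducible Cre driven by a human skeletal actin promoter that acts in skeletal muscle fibres and not in satellite cells. By the labels Cre was thus present in 1 group only, and a difference between the groups cannot be told apart from an effect of Cre itself. Net39 is a protein of the muscle nuclear envelope.

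Small heat shock proteins are chaperones that work without ATP. They share an alpha-crystallin domain, assemble into oligomers and hold unfolding proteins in a soluble state until ATP-dependent HSP70 chaperones refold them or autophagy removes them. Striated muscle holds more kinds of them than most tissues, and there they bind desmin filaments, titin, filamin C and other parts of the Z-disc, which are under mechanical load. Several are induced by heat shock factor 1 through heat shock elements, and mutations in CRYAB, HSPB8 and HSPB3 are known from muscle and motor nerve disease.

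The labels were checked against Net39, listed under its older symbol Ppapdc3. Its counts were 310, 321 and 217 in the libraries labelled Ctrl and 5365, 4340 and 6080 in those labelled cKO. The targeted gene was thus low in every library labelled Ctrl and high in every library labelled cKO, the opposite of what the labels name. Every direction is therefore given for the libraries labelled Ctrl and the libraries labelled cKO, and none is given for loss of Net39 or for Cre. Library totals ran from 33860001 to 48839910 counts. Slow-fibre genes varied widely inside the labelled groups, and their values stand beside the results they move with. The libraries are of whole muscle, so fewer cells of a type and less RNA per cell cannot be told apart.

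Promoter windows of RefSeq (GRCm38.p6), from 250 bases before to 50 bases after a gene's start, were matched for 5 members, with a pair of windows for Hspb6. Hspb2 and Cryab had no entry. The windows are shown because several members are known heat shock targets and because the members did not move alike. The sequences run 5′ to 3′ on the strand of the gene, and capitals mark a head-to-head pair of heat shock factor half-sites, GAANNTTC. The 5 windows shown lie at chr5:135887669-135887968 (plus strand, Hspb1), chr7:30553051-30553350 (plus strand, the second window of Hspb6), chr5:116422815-116423114 (minus strand, Hspb8), chr13:113663627-113663926 (minus strand, Hspb3) and chr4:141420529-141420828 (plus strand, Hspb7).
Hspb1: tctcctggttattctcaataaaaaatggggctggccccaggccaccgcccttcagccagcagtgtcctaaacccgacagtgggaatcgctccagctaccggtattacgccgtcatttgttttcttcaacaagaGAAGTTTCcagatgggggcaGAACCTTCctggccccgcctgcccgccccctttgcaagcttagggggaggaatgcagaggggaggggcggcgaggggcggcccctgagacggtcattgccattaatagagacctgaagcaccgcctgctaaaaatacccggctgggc
Hspb6: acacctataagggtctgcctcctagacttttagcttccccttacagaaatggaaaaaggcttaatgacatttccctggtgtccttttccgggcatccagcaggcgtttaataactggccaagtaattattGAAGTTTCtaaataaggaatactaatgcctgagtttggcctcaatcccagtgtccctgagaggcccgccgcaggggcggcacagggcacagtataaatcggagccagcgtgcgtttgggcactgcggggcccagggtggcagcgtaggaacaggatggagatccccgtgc
Hspb8: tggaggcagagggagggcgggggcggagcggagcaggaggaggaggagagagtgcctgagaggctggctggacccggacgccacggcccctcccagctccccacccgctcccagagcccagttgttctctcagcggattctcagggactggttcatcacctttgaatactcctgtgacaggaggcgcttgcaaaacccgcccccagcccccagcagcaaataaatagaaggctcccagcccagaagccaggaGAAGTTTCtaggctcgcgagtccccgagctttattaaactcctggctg
Hspb3: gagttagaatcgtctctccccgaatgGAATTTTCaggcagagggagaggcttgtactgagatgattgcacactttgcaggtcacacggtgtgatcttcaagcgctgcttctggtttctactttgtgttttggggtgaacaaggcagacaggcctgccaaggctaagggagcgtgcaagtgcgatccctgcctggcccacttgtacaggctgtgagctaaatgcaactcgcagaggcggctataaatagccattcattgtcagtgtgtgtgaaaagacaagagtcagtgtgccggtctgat
Hspb7: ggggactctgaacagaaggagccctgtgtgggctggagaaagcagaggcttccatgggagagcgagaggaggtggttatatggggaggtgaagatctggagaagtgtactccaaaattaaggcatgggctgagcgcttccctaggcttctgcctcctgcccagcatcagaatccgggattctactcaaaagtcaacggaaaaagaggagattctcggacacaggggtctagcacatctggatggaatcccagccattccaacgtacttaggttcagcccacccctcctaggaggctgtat

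The Hspb1 window held 2 such pairs, GAAGTTTC beginning 117 bases before the start, at position -117, and GAACCTTC at position -97. The same 8 letters GAAGTTTC stood at position -120 in the second Hspb6 window and at position 3 in the Hspb8 window. Hspb3 held GAATTTTC at position -224. The Hspb7 window and the first Hspb6 window held none. GAANNTTC reads alike on both strands and was found in 7.86% of all 32851 promoter windows of this length. The tail-to-tail pair TTCNNGAA, in 8.52% of all windows, and the 3-unit heat shock element, in 0.603%, were found in no member window. The letters TATAAA, present in 13.6% of all windows on either strand, were found at position -29 in the second Hspb6 window and at position -11 in Hspb3. In Hspb3 they lie inside a match to the MEF2 consensus (CTATAAATAG at position -12), which 3.19% of all windows hold. E-boxes (CANNTG), the kind of site that MyoD and related factors bind, stood in the windows of Hspb1, Hspb3, Hspb7 and Hspb8 and in 72.3% of all windows. The CArG box, in 1.63% of all windows, was found in none of the member windows. A match is a description of the letters and not evidence of a bound site.

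All 7 genes had a negative log2 fold change, cKO over Ctrl, and 5 of the 7 passed the test as lower in the libraries labelled cKO. On the CPM scale (counts per library size, with TMM factors), Cryab was 4.41-fold, Hspb7 3.85-fold, Hspb1 3.73-fold and Hspb6 2.58-fold higher in the libraries labelled Ctrl. Hspb8 was 1.43-fold higher there, and Hspb2 and Hspb3 did not pass the test. All 7 members passed the filter on low counts and were tested with edgeR's quasi-likelihood test, with Benjamini-Hochberg adjustment over all 14180 genes tested. With thresholds of 0.05 on the adjusted p and 2 on the fold change, 4 of the 7 were called higher in the libraries labelled Ctrl and 0 in those labelled cKO, where 3.92% of all genes tested were called higher in the libraries labelled Ctrl. On the adjusted p alone, 5 of the 7 were higher in the libraries labelled Ctrl, against 11.8% of all genes tested in that direction and 12.6% in the other. In 6 of the 7 the CPM of the labelled groups did not overlap, the libraries labelled Ctrl being higher. Such a separation was found in 21.9% of all genes tested. The median log2 fold change, cKO over Ctrl, was -1.37 over the members and -0.015 over all genes tested.

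**Figure D1:**
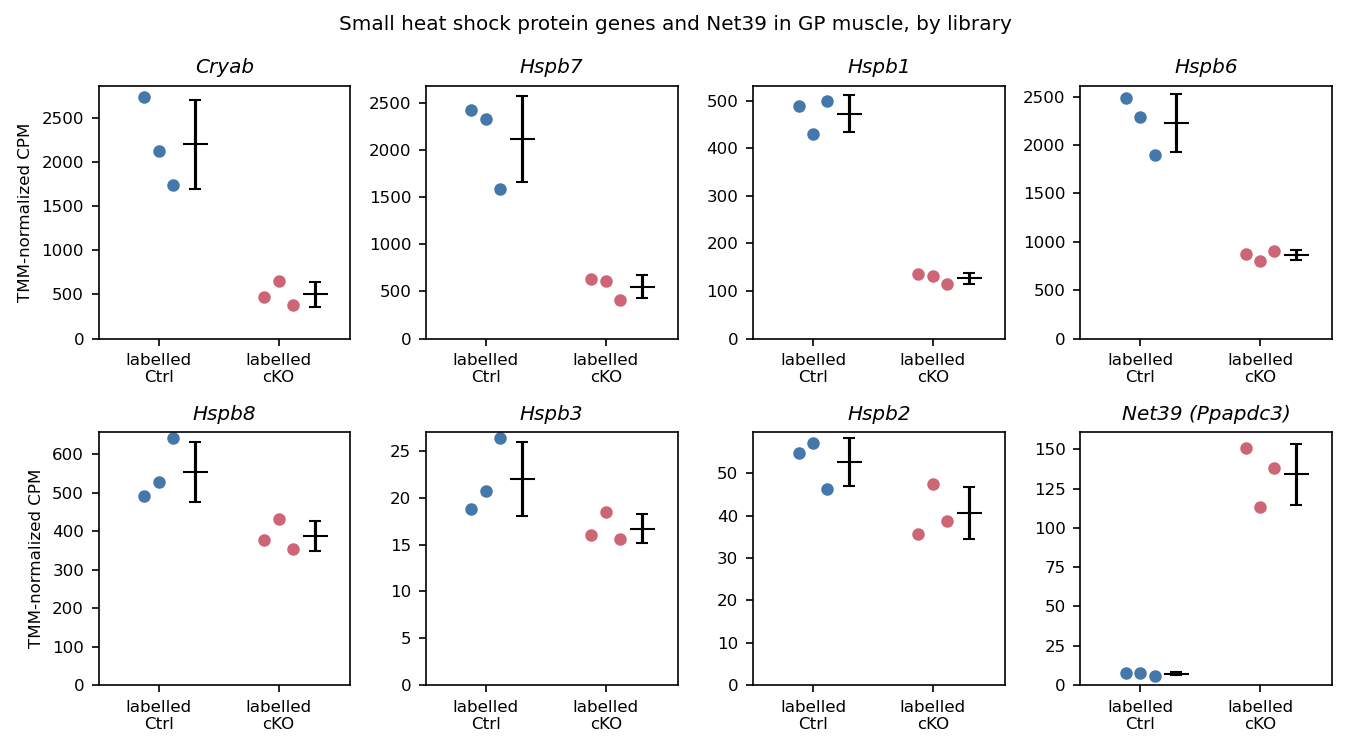
TMM-normalized CPM (linear axes from 0, a panel for each gene) of the 7 genes and of Net39, with 1 point per library and, beside the points, the group mean with a bar of 1 SD (n = 3). Cryab, Hspb7, Hspb1 and Hspb6 separate widely, Hspb8 and Hspb3 narrowly, and the highest library labelled cKO for Hspb2 (47.4) lies above the lowest library labelled Ctrl (46.2).

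Cryab encodes alpha-B crystallin, which binds desmin and titin and is among the most abundant chaperones of slow and cardiac muscle. The gene lies on the plus strand at chr9:50751325-50756636 (GRCm38). The transcript with the most coding bases (525) has 3 exons. Cryab CPM was 2748, 2127 and 1743 in the libraries labelled Ctrl, and 472, 655 and 375 in those labelled cKO. The lowest library of the first group stood far above the highest of the second. The log2 fold change was -2.14 (SE 0.25, edgeR adjusted p = 0.00326), the largest among the members.

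Hspb7, the cardiovascular small heat shock protein, binds filamin C and is made in heart and skeletal muscle. It lies on the plus strand at chr4:141420779-141425311, with 3 exons and 507 coding bases. Its CPM was 2433, 2330 and 1593 in the libraries labelled Ctrl and 638, 607 and 408 in those labelled cKO. In each group the third library was the lowest, and the groups stood apart. The log2 fold change was -1.94 (SE 0.23, edgeR adjusted p = 0.00327).

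Hspb1 is the mouse counterpart of human HSP27, a heat-inducible chaperone that binds actin and filamin and is phosphorylated by MAPKAP kinases. It lies on the plus strand at chr5:135887919-135889563 and has 3 exons with 627 coding bases. The libraries labelled Ctrl gave 489, 429 and 500 CPM of Hspb1, and those labelled cKO gave 135, 131 and 114 CPM. The highest and lowest library differed by 1.17-fold and 1.19-fold within the labelled groups, far less than the 3.73-fold between them. With a log2 fold change of -1.90 (SE 0.11, edgeR adjusted p = 0.00055), Hspb1 ranked 8 of all genes tested by p.

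Hspb6, also called HSP20, is a partner of Hspb1 and Cryab in mixed oligomers and a substrate of protein kinase A. It lies on the plus strand at chr7:30552178-30555443, and the transcript with the most coding bases (486) has 3 exons. The libraries labelled Ctrl gave 2484, 2292 and 1896 CPM of Hspb6, and those labelled cKO gave 870, 804 and 909 CPM. The libraries labelled cKO lay within 1.13-fold of each other, and the groups did not overlap. The log2 fold change was -1.37 (SE 0.13, edgeR adjusted p = 0.00183). The annotation lays 122 of its exon bases (5.31%) over Proser3 on the opposite strand, 77 (3.35%) over Gm38670 on the same strand and 3 over Lin37 on the opposite strand. Use of strand in counting is not given in the sources used here, so reads of genes that overlap on opposite strands cannot be told apart, and those on the same strand could not be told apart by strand in any case.

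The call on these 4 genes held in each of the 13 alternative fits of the same contrast, with adjusted p up to 0.0188 for Cryab, 0.0168 for Hspb7, 0.00596 for Hspb1 and 0.0154 for Hspb6. No exact test over 3 against 3 libraries can pass 0.05, since its smallest two-sided p is 0.1, and each of the 4 reached that value by exact permutation.

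**Figure D2:**
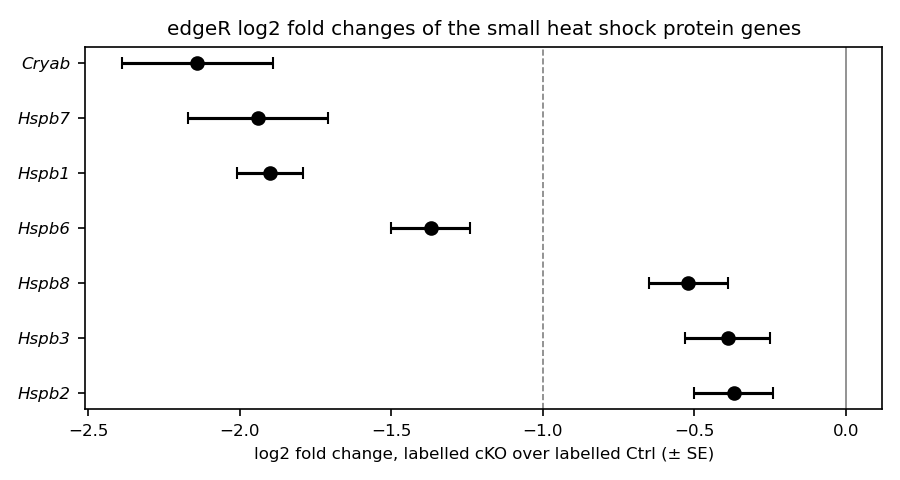
Log2 fold change (cKO over Ctrl, as labelled) of the 7 genes with bars of 1 SE, from the edgeR fit over 14180 genes. The solid line marks 0 and the dashed line a fold change of 2. The points fall into a lower set from -2.14 (Cryab) to -1.37 (Hspb6) and a set nearer 0 from -0.52 (Hspb8) to -0.37 (Hspb2).

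Hspb8, or HSP22, joins BAG3, HSP70 and the ubiquitin ligase CHIP (Stub1) in the complex that sends damaged filamin to autophagy. It lies on the minus strand at chr5:116408491-116422864 and has 3 exons with 588 coding bases. Hspb8 CPM was 492, 529 and 642 in the libraries labelled Ctrl, and 377, 431 and 354 in those labelled cKO. There was no overlap of the groups, but the gap from 431 to 492 CPM was smaller than the range inside the libraries labelled Ctrl. The log2 fold change was -0.52 (SE 0.13, edgeR adjusted p = 0.0292). It no longer passed with the library labelled Ctrl 2, Ctrl 3, cKO 1 or cKO 3 left out, with adjusted p of 0.0699, 0.0502, 0.0845 and 0.0929.

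Its partner Bag3 fell as well, from 384, 334 and 317 CPM in the libraries labelled Ctrl to 212, 201 and 189 CPM in those labelled cKO (log2 fold change -0.78, SE 0.10, edgeR adjusted p = 0.00394). The ratio of Hspb8 to Bag3 CPM was 1.28, 1.58 and 2.03 in the libraries labelled Ctrl and 1.78, 2.14 and 1.87 in those labelled cKO. These ratios overlapped, and the log2 difference of 0.26 did not pass an exact two-sided permutation test (p = 0.3; adjusted p = 0.45 over the 3 ratios compared). With 1 library left out, the difference ranged from 0.10 (without Ctrl 1) to 0.43 (without Ctrl 3). Stub1, the ligase of the complex, lay between 44.6 and 50.5 CPM in all 6 libraries (log2 fold change -0.0013, SE 0.08, edgeR adjusted p = 0.992). The constitutive HSP70 gene Hspa8 had 1504, 1198 and 1431 CPM against 1238, 1032 and 1165 CPM, and its groups overlapped (log2 fold change -0.27, SE 0.13, edgeR adjusted p = 0.166).

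Hspb2 and Hspb3 form a complex of their own in differentiated muscle, and Hspb2 binds the myotonic dystrophy kinase Dmpk. Hspb2 lies on the minus strand at chr9:50751078-50752354, with 2 exons and 546 coding bases. Hspb3 has 1 exon with 462 coding bases, on the minus strand at chr13:113662896-113663676. Hspb2 CPM was 54.7, 57.1 and 46.2 in the libraries labelled Ctrl, and 35.7, 47.4 and 38.7 in those labelled cKO (log2 fold change -0.37, SE 0.13, edgeR adjusted p = 0.0742). Its second library labelled cKO reached into the range of those labelled Ctrl. Hspb3 CPM was 18.8, 20.7 and 26.4 in the libraries labelled Ctrl, and 16.0, 18.5 and 15.6 in those labelled cKO (log2 fold change -0.39, SE 0.14, edgeR adjusted p = 0.0862). Here the groups nearly met, at 18.5 and 18.8 CPM, and did not overlap. The ratio of Hspb3 to Hspb2 CPM was 0.343, 0.362 and 0.572 in the libraries labelled Ctrl and 0.448, 0.39 and 0.403 in those labelled cKO. The ratios of the second group lay inside the range of the first, with a log2 difference of -0.0043 (exact two-sided permutation p = 1).

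Hspb2 and Cryab are neighbours on chromosome 9 that begin close together and run in opposite directions. In GENCODE M21 the starts of Hspb2 and of the nearest Cryab transcript outside it are 552 bases apart, and 2 of the 6 Cryab transcripts begin inside Hspb2. The genes share 252 exon bases on opposite strands, which is 30.2% of the exon bases of Hspb2 and 17% of those of Cryab. Cryab had 50.3, 37.3 and 37.7 times the CPM of Hspb2 in the libraries labelled Ctrl, and 13.2, 13.8 and 9.68 times in those labelled cKO. The ratios did not overlap between the groups. The log2 difference was -1.77 (exact two-sided permutation p = 0.1, the smallest that 3 against 3 allow; adjusted p = 0.3 over the 3 ratios compared). Reads in the shared exon bases cannot be told apart without the strand, so the Hspb2 and Cryab values are not fully separate.

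The ratios above were of CPM without regard to length and served to compare the libraries. To set the levels of the genes against each other, CPM per kilobase of exon was used. In the libraries labelled Ctrl the order was Cryab at 1492 ± 343 CPM per kilobase (SD, n = 3), Hspb6 at 967 ± 130, Hspb7 at 765 ± 166, Hspb1 at 458 ± 37.2, Hspb8 at 284 ± 40.3, Hspb2 at 63.1 ± 6.87 and Hspb3 at 28.1 ± 5.10. Among neighbours in this order, the library ranges overlapped for Hspb6 and Hspb7 alone, and Hspb6 was above Hspb7 in 3 of 3 libraries. In the libraries labelled cKO the order began with Hspb6 at 375 ± 23.0 CPM per kilobase and Cryab at 338 ± 96.1, whose ranges overlapped. Hspb7 at 199 ± 45.1 and Hspb8 at 199 ± 20.1 followed and overlapped too, then Hspb1 at 123 ± 11.0, Hspb2 at 48.7 ± 7.28 and Hspb3 at 21.4 ± 2.00. Hspb8 stood below Hspb1 in the libraries labelled Ctrl and above it in those labelled cKO, with no overlap of the library ranges in either group.

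**Figure D3:**
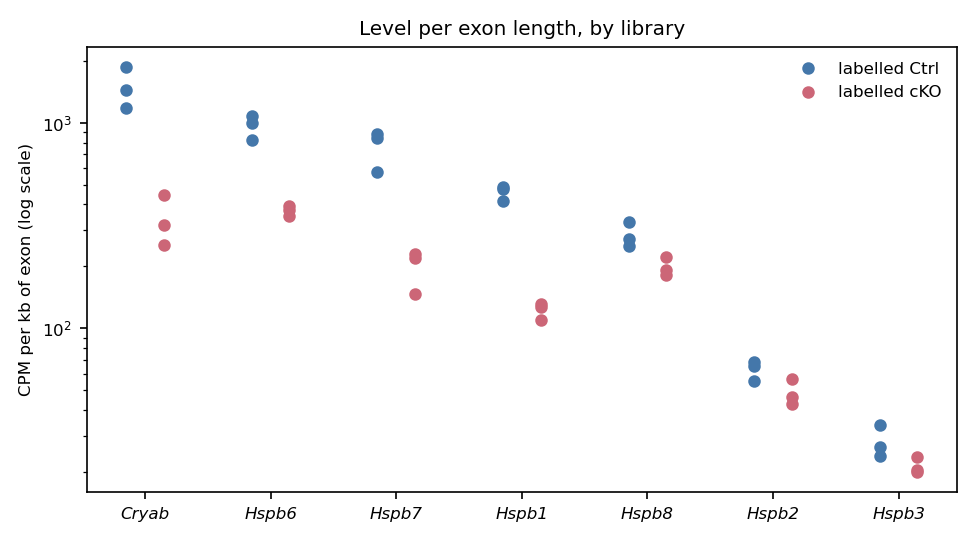
CPM per kilobase of exon (log scale) of the 7 genes by library, in the order of their level in the libraries labelled Ctrl, which are blue, with those labelled cKO in red. The levels span from 28.1 (Hspb3) to 1492 (Cryab) as means of the libraries labelled Ctrl and from 21.4 (Hspb3) to 375 (Hspb6) in those labelled cKO.

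The make-up of the family moved with these levels. Per kilobase, Cryab made up 36.5% ± 3.26 (SD, n = 3) of the 7 genes in the libraries labelled Ctrl and 25.6% ± 4.55 in those labelled cKO. Hspb8 made up 7.20% ± 2.06 and 15.3% ± 0.526, with 5.44%, 6.68% and 9.46% in the first group and 14.7%, 15.3% and 15.7% in the second. Summed CPM of the 7 members was 8719, 7785 and 6446 in the libraries labelled Ctrl and 2544, 2693 and 2214 in those labelled cKO, a ratio of 3.08 between the group means. The sums did not overlap. As a share of all counts of a library, the members held 0.837% ± 0.137 (SD, n = 3) and 0.228% ± 0.0333. Summed per kilobase, the log2 ratio of the group means, cKO over Ctrl, was -1.64. It was -1.89 with the sum taken as a share of the per-length level of all genes.

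Levels of fibre-type marker genes differed between the labelled groups, the fast set by the test and the slow set in part. The summed CPM of 8 slow-fibre genes was 14598, 8657 and 8481 in the libraries labelled Ctrl and 2001, 3873 and 446 in those labelled cKO. All 8 had a negative log2 fold change, and the median log2 fold change was -2.46. The 3 that passed the test, against 11.8% of all genes tested in that direction, were Atp2a2, Myl2 and Tnnt1. Each of these failed it with at least 1 library left out. Inside the libraries labelled Ctrl the slow-fibre sum varied 1.72-fold and the sum of the 7 members 1.35-fold. Both fell from Ctrl 1 to Ctrl 3. Cryab, Hspb7 and Hspb6 fell in the same order there. Hspb2 was highest in Ctrl 2, and Hspb1, Hspb3 and Hspb8 were highest in Ctrl 3. Inside the libraries labelled cKO the slow-fibre sum varied 8.68-fold and the sum of the 7 members 1.22-fold. The library labelled cKO 3 was lowest in both, and cKO 2 highest in both. Cryab, a gene with high expression in slow fibres, was also highest in cKO 2 (655 CPM) and lowest in cKO 3 (375 CPM), a 1.75-fold range. Hspb7, Hspb1, Hspb8 and Hspb3 were also lowest in cKO 3, Hspb2 was lowest in cKO 1, and Hspb6 was highest in cKO 3 (909 CPM). With cKO 3 left out, Cryab, Hspb7, Hspb1 and Hspb6 each passed the test. The slow-fibre sums of cKO 1 (2001) and cKO 2 (3873) still lay below all of those labelled Ctrl, so that fit does not separate the members from fibre type. The summed CPM of 8 fast-fibre genes was 56429, 77586 and 95759 in the libraries labelled Ctrl and 192746, 149624 and 176171 in those labelled cKO. All 8 passed the test as higher in those labelled cKO, against 12.6% of all genes tested in that direction. Of the 8, 7 no longer passed with at least 1 library left out. The part of fibre-type composition in the differences of the small heat shock protein genes was not tested.

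**Figure D4:**
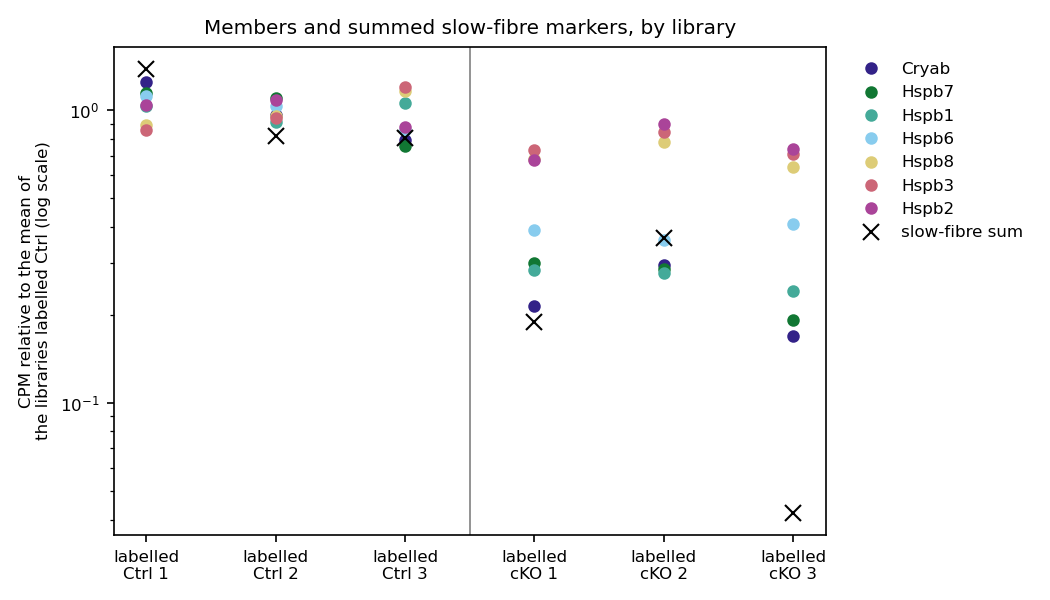
CPM of each of the 7 genes and the summed CPM of 8 slow-fibre genes (crosses), each relative to its mean in the libraries labelled Ctrl (log scale), by library. The slow-fibre sum runs from 446 to 3873 CPM among the libraries labelled cKO, a wider range than any of the 7 genes shows there.

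Some members are also made by other cells of muscle, Hspb1, Hspb6 and Cryab in smooth muscle among them. Of all genes tested, 11.8% passed as higher in the libraries labelled Ctrl and 12.6% as higher in those labelled cKO. Among 6 smooth muscle genes, 3 passed as higher in the libraries labelled Ctrl. The 6 summed to 396 to 431 CPM there and to 294 to 345 CPM in those labelled cKO. Endothelial genes summed to 354 to 371 CPM and 319 to 352 CPM, with 0 of 5 passing. Of 6 immune genes, 5 were tested and 3 passed as higher in the libraries labelled Ctrl, and the 6 summed to 48.3 to 61.4 CPM there and to 25.3 to 39.6 CPM in those labelled cKO. Of 4 Schwann cell genes, 1 passed in the same direction (137 to 200 CPM against 78.1 to 127 CPM), and 2 of 5 fibro-adipogenic progenitor genes did (984 to 1178 CPM against 650 to 1199 CPM). Of 3 satellite cell and 4 adipocyte genes, 0 passed. Of the markers that passed, Cnn1 of smooth muscle and Pmp22 of Schwann cells still passed with each library left out. No listed marker was at 0 in every library. The part of these cells in the members' differences was not tested.

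The other chaperones that work with the family fell in part. Of 24 partner and co-chaperone genes, all tested, 12 passed as higher in the libraries labelled Ctrl and 0 as higher in those labelled cKO, with 12 not passing, where 11.8% and 12.6% of all genes tested passed in these directions. The median log2 fold change was -0.36, against -0.015 over all genes tested. Of the 24, 4 were also past a fold change of 2, against 3.92% of all genes tested. The CPM of Hspa1a, an inducible HSP70 gene, was 144, 62.9 and 128 in the libraries labelled Ctrl, and 9.57, 20.6 and 7.57 in those labelled cKO (log2 fold change -3.15, SE 0.46, edgeR adjusted p = 0.00544). Its near-identical copy Hspa1b gave -3.35 (SE 0.54, edgeR adjusted p = 0.00734), and how reads were split between the copies is uncertain. Without the library labelled cKO 2, the highest of its group for both, the log2 fold change of Hspa1b was -4.14 (17.6-fold, against 10.2-fold with all libraries). Hspa2 had a log2 fold change of -1.72 (edgeR adjusted p = 0.00523). The inducible HSP90 gene Hsp90aa1 gave -1.14 (edgeR adjusted p = 0.0126), and the constitutive Hsp90ab1 gave -0.13 and did not pass (edgeR adjusted p = 0.461). Hsp90aa1 did not pass with the mouse number as a replicate block (edgeR adjusted p = 0.0511), and the difference between this pair was not tested. The 8 others that passed were Bag2 (log2 fold change -0.87), Hsph1 (-0.80), Bag3 (-0.78), Dnajb4 (-0.71), Hspa1l (-0.64), Dmpk (-0.39), Hspa4 (-0.33) and Dnajb2 (-0.28), which include nucleotide exchange factors and J-domain co-chaperones of HSP70. Dmpk, Dnajb4 and Hspa4 did not pass with at least 1 library left out, and Dnajb2 did not pass whichever library was left out.

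**Figure D5:**
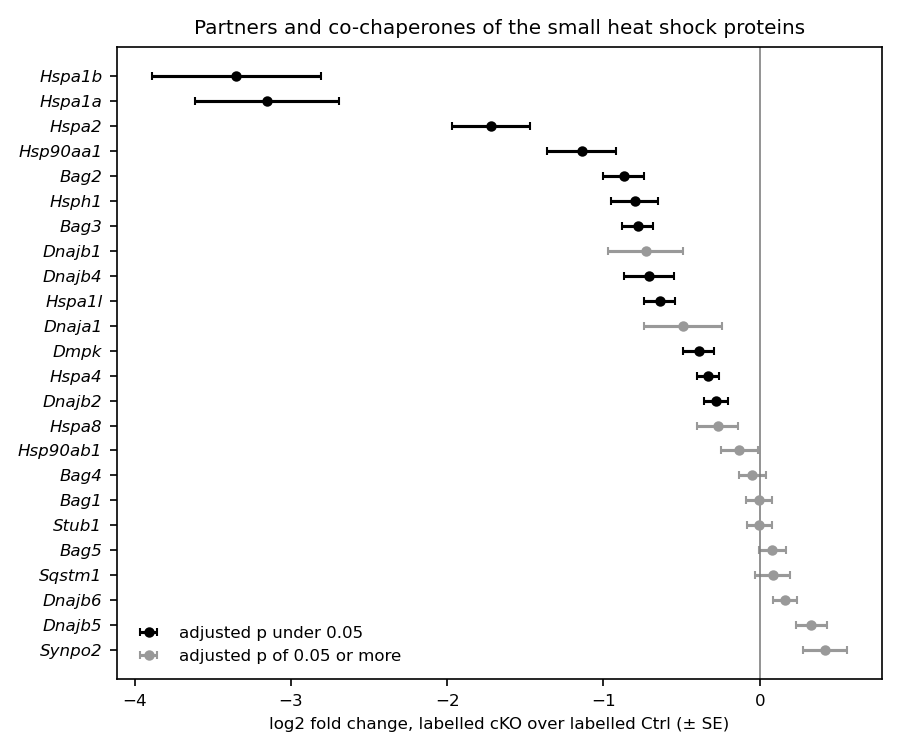
Log2 fold change (cKO over Ctrl, as labelled) with bars of 1 SE for the 24 partner and co-chaperone genes, black where the adjusted p is under 0.05 and grey otherwise. The values run from -3.35 (Hspa1b) to 0.42 (Synpo2), and all 12 black points lie below 0.

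Most heat shock transcription factor genes did not pass the test. Hsf1, the main activator of heat shock genes, was at 55.2, 55.8 and 55.4 CPM in the libraries labelled Ctrl, at 58.1, 49.1 and 50.1 CPM in those labelled cKO, and the groups overlapped (log2 fold change -0.081, SE 0.083, edgeR adjusted p = 0.508). Hsf2 was the only one of the 4 genes of this list to pass (log2 fold change -0.30, edgeR adjusted p = 0.0371). It did not pass whichever library was left out (edgeR adjusted p of 0.0518 to 0.0916). Messenger RNA levels do not show the activity of these factors. A list of 7 kinases held those that phosphorylate small heat shock proteins or act upstream of such a kinase. Of these 7, 3 passed as higher in the libraries labelled cKO, against 12.6% of all genes tested. As higher in those labelled Ctrl 1 passed, against 11.8% of all genes tested. The median log2 fold change of the 7 was 0.20. The p38 kinase Mapk14 rose from 144, 161 and 157 CPM in the libraries labelled Ctrl to 248, 206 and 227 CPM in those labelled cKO (log2 fold change 0.56, SE 0.10, edgeR adjusted p = 0.00874). Its target Mapkapk3 had 39.4, 43.3 and 38.1 CPM against 89.0, 43.9 and 82.3 CPM, with the library labelled cKO 2 next to those labelled Ctrl (log2 fold change 0.83, SE 0.24, edgeR adjusted p = 0.0449). The catalytic subunits of protein kinase A went in opposite directions, with log2 fold changes of 0.58 for Prkacb (edgeR adjusted p = 0.0115) and -0.33 for Prkaca (edgeR adjusted p = 0.0298). Mapkapk3 and Prkaca did not pass with at least 1 library left out, nor Prkacb with scaling by total counts (log2 fold change 0.33, edgeR adjusted p = 0.0515).

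Of 13 filament and Z-disc genes whose products the family binds or guards, 4 passed as higher in the libraries labelled Ctrl, 2 as higher in those labelled cKO and 7 did not pass, against 11.8% and 12.6% of all genes tested that passed in these directions. The median log2 fold change of the 13 was -0.052. Desmin (Des), the filament to which Cryab binds, was at 5099, 5638 and 5120 CPM in the libraries labelled Ctrl, at 6132, 3940 and 5218 CPM in those labelled cKO, and did not pass (log2 fold change -0.052, SE 0.18, edgeR adjusted p = 0.853). Filamin C (Flnc), a client of Hspb7 and of the Hspb8 and Bag3 complex, had 2373, 2253 and 2456 CPM against 1676, 1127 and 1356 CPM (log2 fold change -0.77, SE 0.16, edgeR adjusted p = 0.0149). Flnc did not pass without the library labelled cKO 3 (edgeR adjusted p = 0.0577). The LIM protein gene Fhl1 (log2 fold change -1.77, edgeR adjusted p = 0.00261), alpha-actinin 2 (Actn2, -1.40, edgeR adjusted p = 0.00539) and vimentin (Vim, -0.90, edgeR adjusted p = 0.00326) were also higher in the libraries labelled Ctrl. Synemin (Synm), a desmin-binding filament protein, had a log2 fold change of 1.01 (edgeR adjusted p = 0.0154) and nebulin (Neb) of 0.56 (edgeR adjusted p = 0.027), both higher in the libraries labelled cKO. With at least 1 library left out, Synm (edgeR adjusted p of up to 0.0585) and Neb did not pass.

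The members also differed in how they ran across the 6 libraries, which share the groups, so that any genes that differ between the groups correlate. Over the 6 libraries, Pearson's r of log2 CPM was 0.96 to 0.99 among Cryab, Hspb7, Hspb1 and Hspb6. Hspb3 ran most like Hspb8, at 0.97, and least like Hspb2, at 0.53. The search for the genes most alike covered 12353 genes, the members included, and the members were then left out. The genes with the highest r were Coprs (0.9990) and Acvrl1 (0.9986) for Cryab, and Gna12 (0.9975) and Hps1 (0.9974) for Hspb7. They were Rcan1 (0.9979) and Dnaja4 (0.9978) for Hspb1. For Hspb6 they were Pbld2 (0.9985) and Vamp2 (0.9977). For Hspb8, Mien1 had an r of 0.9988. For Hspb3 they were Trp53bp1 (0.9985) and Lilrb4a (0.9965), and for Hspb2 Hoxb6 (0.9948) and the myoglobin gene Mb (0.9932). With 6 libraries and this many genes, values this close to 1 are found for every member. Rcan1, a regulator of calcineurin, fell from 375 to 86.8 CPM as group means (log2 fold change -2.11, edgeR adjusted p = 0.000722) and Dnaja4, a J-domain co-chaperone, from 294 to 111 CPM (log2 fold change -1.40, edgeR adjusted p = 0.000627). Coprs, Acvrl1, Gna12, Hps1, Pbld2 and Vamp2 passed the test too. Mien1, Trp53bp1, Lilrb4a, Hoxb6 and Mb did not (edgeR adjusted p from 0.0916 for Mb to 0.178 for Mien1).

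The relatives of the family that are made in other tissues were near 0. Cryaa, the alpha-crystallin of the lens, and the testis genes Hspb9 and Odf1 had at most 4 counts in any library and did not pass the filter on low counts.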

How the data were processed

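Bulk RNA-Seq counts were analysed for 6 libraries, 3 labelled Ctrl and 3 labelled cKO. The authors deposited 1 table of whole-number counts per gene and library without normalization. Per the submitters' processing notes, FastQC 0.11.8, Trimmomatic 0.39, HISAT2 2.1.0 and featureCounts 1.6.2 were used with mm10. The gene annotation and the use of strand in counting are not given in the sources used here. No row was without a gene name. The labels number the mice separately, so the p-values cover the spread between mice.

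The test was edgeR 4.0.16's quasi-likelihood test in R 4.3.3 (TMM factors, filterByExpr, estimateDisp, glmQLFit and glmQLFTest) and Benjamini-Hochberg adjustment over the 14180 genes that passed the filter. Called genes are those past thresholds of 0.05 on the adjusted p and 2 on the fold change. Standard errors were derived from the F statistic. CPM used TMM factors, and log2 CPM a prior count of 2. CPM per kilobase used the union of exons in GENCODE M21 (GRCm38), in which 95.8% of the 24421 symbols were found. For ratios of CPM, two-sided permutation tests were exact, with Benjamini-Hochberg adjustment over 3 ratios. Motifs were searched on both strands of RefSeq promoter windows.

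The members and the lists were chosen with earlier results of these data known. Named are the 7 members, Net39, genes of the 4 pathway lists (partners, heat shock factors, kinases and clients, not cell type markers) with an adjusted p under 0.05 or in a complex with a member (Bag3, Hspa8, Stub1, Hsf1, Des, Flnc), and for each member the 2 genes with the highest Pearson r among genes with a mean CPM of at least 1. A gene that this rule selects is not reported here. Hsp90ab1, Synpo2, a few markers and the tissue-restricted relatives were named beside them after their values were seen. The edgeR step was tested on simulated data. Alternatives were total counts, size factors or the Wald test of DESeq2 1.42.0, a minimum of 10 counts per library or no filter at all, the mouse number as a replicate block, a robust fit, glmTreat against a fold change of 1.2, no fold change limit and each library left out in turn. Single-nucleus data of the study were left out.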

Additional observations from a re-analysis of the deposited data

How the results depend on the processing

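Each member was refitted under 13 alternatives. All 91 values kept their direction. In all, 82 also kept their side of the threshold, while 5 no longer passed the adjusted p and 4 newly did. Cryab, Hspb7, Hspb1 and Hspb6 stayed called under all 13. Scaling by total counts moved the median log2 fold change over the genes tested from -0.015 to -0.27, and called genes were split into 1023 higher in the libraries labelled Ctrl and 157 higher in those labelled cKO, against 556 and 302. Hspb2 (log2 fold change -0.62) and Hspb3 (-0.64) then passed the test. Relative to the median, they stood at -0.35 and -0.37, against -0.36 and -0.38 with TMM factors. With a library left out, Hspb2 ranged from -0.52 to -0.30 and passed without the library labelled Ctrl 3 (edgeR adjusted p = 0.0483) or cKO 2 (edgeR adjusted p = 0.0254). Hspb3 ranged from -0.49 to -0.24 (without Ctrl 3), and Hspb8 from -0.61 to -0.40. The log2 difference of the Hspb3 to Hspb2 ratio ranged from -0.14 to 0.23 and changed sign on leaving out Ctrl 3 (0.23), cKO 2 (0.037) or cKO 3 (0.013). The causes were not tested beyond these values. With the fold change limit of 2 dropped, 3454 genes passed in place of 858, and with glmTreat against a fold change of 1.2 in its place 1420 did. Under glmTreat with the limit of 2 kept, 430 and 238 genes were called, against 556 and 302. The mouse numbers did not pair the libraries: deviations of same-numbered mice correlated at 0.0835, -0.215 and -0.00201, and 1 of 6 libraries correlated best with its own number. With the number as a replicate block, Hspb8 (-0.51, edgeR adjusted p = 0.0777) and Hsp90aa1 (-1.13, edgeR adjusted p = 0.0511) did not pass, and 448 and 236 genes were called. The member with the fewest counts, Hspb3, had 567 to 966 per library.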
